A study of Homo sapiens with 12 samples.

Results

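SLA, SWT1, C8B, CPVL and PZP are 5 genes whose ratios of treated over untreated RNA were among the lowest on the arrays of 4 drugs. They were chosen by those low values in cytarabine, cisplatin, paclitaxel and cytochalasin D in an earlier analysis of the same arrays, so their levels in these drugs are given as a description without a test. Each gene has 1 probe, and they are 5 of the 5499 named genes and 7739 features measured. The study hybridised RNA of H460 cells, a human lung cancer line, on 12 two-channel arrays, with drug-treated RNA in one channel and untreated H460 RNA in the other, after 24 h of drug. The doses were 1 µM 5-fluorouracil (5-FU), 0.2 µM cytarabine, 5 µM cisplatin, 5 nM paclitaxel and 0.2 µM cytochalasin D. 5-FU has 4 arrays, namely 2 replicates that were each hybridised forward (treated RNA in channel 2) and reversed (treated RNA in channel 1). The other drugs have 2 arrays each, all with treated RNA in channel 1, the orientation of the reversed 5-FU arrays. Nothing in the labels says whether replicates were separate cultures or whether the untreated RNA was shared, so errors may measure technical spread.

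The 5 genes belong to no common pathway. SLA is an adaptor related to SRC family kinases that lowers receptor signalling, mainly in lymphocytes, and SWT1 is a nuclear RNA endonuclease of transcript quality control. C8B encodes a chain of complement component C8, which takes part in the pore of the membrane attack complex, and PZP is a plasma protease inhibitor of the alpha-2-macroglobulin family. Both are known as secreted products of liver. CPVL is a serine carboxypeptidase-like protein found in macrophages and several other tissues. Of the drugs, 5-FU and cytarabine are pyrimidine antimetabolites, cisplatin crosslinks DNA, paclitaxel stabilises microtubules and cytochalasin D blocks actin filament growth.

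Promoter windows (250 bases before to 50 after a transcript start, RefSeq, GRCh38.p14, matched by symbol) are shown for SWT1, C8B, CPVL and PZP because members' ratios were low on the same arrays. SLA was low on those arrays too, and its window is not shown. They are the SWT1 window chr1:185156810-185157109 (plus strand), the C8B window chr1:56965966-56966265 (minus strand), the CPVL window chr7:29195218-29195517 (minus strand) and the PZP window chr12:9208346-9208645 (minus strand). Capitals mark the motifs searched as letters on both strands, which were TATAAA (the TATA box), CCAAT (the CCAAT box), GGGCGG (the GC box), CACGTG (the E-box), TGACGTCA (the cyclic AMP response element) and CATGCCC (letters found in p53 sites).
SWT1: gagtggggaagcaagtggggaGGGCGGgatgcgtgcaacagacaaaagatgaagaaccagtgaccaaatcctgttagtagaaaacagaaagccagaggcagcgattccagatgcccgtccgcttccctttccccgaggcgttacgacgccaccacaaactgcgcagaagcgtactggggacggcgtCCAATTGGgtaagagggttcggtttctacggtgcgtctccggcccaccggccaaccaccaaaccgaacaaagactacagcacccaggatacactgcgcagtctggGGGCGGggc
C8B: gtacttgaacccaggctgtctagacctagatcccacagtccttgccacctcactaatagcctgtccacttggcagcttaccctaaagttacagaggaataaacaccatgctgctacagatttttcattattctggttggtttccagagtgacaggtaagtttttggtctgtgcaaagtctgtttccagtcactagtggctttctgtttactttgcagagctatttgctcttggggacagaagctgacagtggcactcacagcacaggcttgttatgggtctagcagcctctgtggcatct
CPVL: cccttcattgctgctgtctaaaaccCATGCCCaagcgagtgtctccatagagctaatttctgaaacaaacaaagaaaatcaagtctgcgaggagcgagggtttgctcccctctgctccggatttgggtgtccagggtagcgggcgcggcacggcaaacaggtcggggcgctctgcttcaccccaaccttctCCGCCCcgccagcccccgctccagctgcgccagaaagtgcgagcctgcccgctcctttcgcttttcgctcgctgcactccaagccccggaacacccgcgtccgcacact
PZP: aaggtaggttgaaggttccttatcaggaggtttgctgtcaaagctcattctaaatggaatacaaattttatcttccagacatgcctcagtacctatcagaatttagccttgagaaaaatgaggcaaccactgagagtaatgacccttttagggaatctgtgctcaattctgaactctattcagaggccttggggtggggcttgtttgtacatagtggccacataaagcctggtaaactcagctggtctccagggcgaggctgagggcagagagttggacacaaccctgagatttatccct

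The windows of C8B and PZP held none of these motifs, with 0 and 1 CpG dinucleotides and a GC content of 47.0% and 45.3%. The SWT1 window held GGGCGG at 2 places and 2 overlapping matches to CCAAT, 1 on each strand, with 21 CpG dinucleotides and 58.7% GC. The CPVL window held GGGCGG on the opposite strand and CATGCCC, with 23 CpG dinucleotides and 61.0% GC. Among 35116 such windows of all genes, 45.0% held GGGCGG, 34.6% CCAAT, 11.5% TATAAA, 7.26% CACGTG, 3.78% CATGCCC and 1.85% TGACGTCA, and the median GC content was 58.7%. No motif of the search was thus common to the 4 windows, and SWT1 and CPVL have 1 and 2 further windows that are not shown.

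The deposited values are log ratios of the channels, taken here as log2 since no base is stated, centred on each array's median and turned to treated over untreated. Their direction is likely rather than stated: the sign was chosen so that the p53 targets MDM2 (mean 1.49 over the 5-FU arrays before centring) and CDKN1A (2.51) and the median of 14 p53 targets (0.41) are positive in 5-FU. On the cisplatin arrays MDM2 averaged 2.65 and CDKN1A 3.66 after centring. With cytarabine, paclitaxel and cytochalasin D, MDM2 averaged −0.21, −0.17 and −0.14 and CDKN1A 0.20, 0.21 and 0.13. In these drugs the direction rests on the labelled channels and the sign common to all arrays. With the opposite sign every low value below would be a high one. The 5-FU arrays hold values for 4243 to 6139 features and the other arrays for 6681 to 7279. Across features, arrays of cytarabine, paclitaxel and cytochalasin D correlated with each other at 0.64 to 0.73, cisplatin arrays with these at 0.36 to 0.45, and 5-FU arrays with those of the other drugs at 0.04 to 0.19. Features are not independent replicates, and these arrays may share untreated RNA. A ratio gives no level, so neither the H460 identity nor the presence of another cell type could be read from marker genes.

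SLA had the widest spread. Its log2 ratio was −2.12 and −2.83 with cytarabine, −0.98 and −1.24 with cisplatin, −1.56 and −1.61 with paclitaxel and −1.68 and −1.72 with cytochalasin D. In 5-FU it was −1.09 on the forward array of replicate 1, −0.23 and 0.72 on the reversed arrays of replicates 1 and 2, and had no value on the other forward array. The 8 arrays of the other drugs were thus all negative, and the forward 5-FU array lay among the cisplatin values. The mean was −2.48 ± 0.50 with cytarabine (SD, n = 2), that is 5.56-fold lower than untreated, and −1.11 ± 0.18 with cisplatin (2.16-fold lower).

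SWT1 gave the closest replicates with cytarabine, −2.46 and −2.49, a mean of −2.48 ± 0.02 (SD, n = 2) or 5.56-fold lower. Its ratios were −1.28 and −1.42 with cisplatin, −1.68 and −1.64 with paclitaxel, and −1.42 and −1.56 with cytochalasin D. On the 5-FU arrays it read −0.21 forward and 0.15 and 0.22 reversed, with 1 forward array lacking a value. The cytarabine arrays lay below those of each other drug, and no 5-FU array came near any of them.

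C8B read −1.93 and −2.17 with cytarabine, −1.76 and −2.03 with cytochalasin D, −1.72 and −1.87 with paclitaxel and −1.01 and −1.41 with cisplatin. It had values on only 2 of the 4 5-FU arrays, both of replicate 1, and they differed in sign: −0.20 forward and 0.82 reversed. The means ran from −2.05 ± 0.17 with cytarabine (4.15-fold lower) to −1.21 ± 0.28 with cisplatin (2.31-fold lower; SD, n = 2 each).

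PZP, the other plasma protein, had a value on every array. Its ratios were −2.07 and −1.90 with cytarabine, −2.11 and −1.74 with cytochalasin D, −1.75 and −1.42 with paclitaxel and −1.33 and −1.14 with cisplatin. The 5-FU arrays read 0.08 and 0.13 forward and 0.07 and 0.46 reversed. PZP was therefore above 0 on each 5-FU array and below −1 on each array of the other drugs.

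CPVL, also measured on every array, read −2.09 and −2.13 with cytarabine, −1.99 and −1.59 with cisplatin, −1.60 and −1.75 with paclitaxel and −1.56 and −1.69 with cytochalasin D. Its 5-FU values were the tightest of the 5 genes: −0.02 and −0.09 forward and −0.10 and −0.21 reversed. Unlike the other 4 genes, for which cisplatin gave the highest mean ratio of the 4 drugs, CPVL had its second lowest mean with cisplatin (−1.79 ± 0.29, SD, n = 2, 3.45-fold lower).

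**Figure D1:**
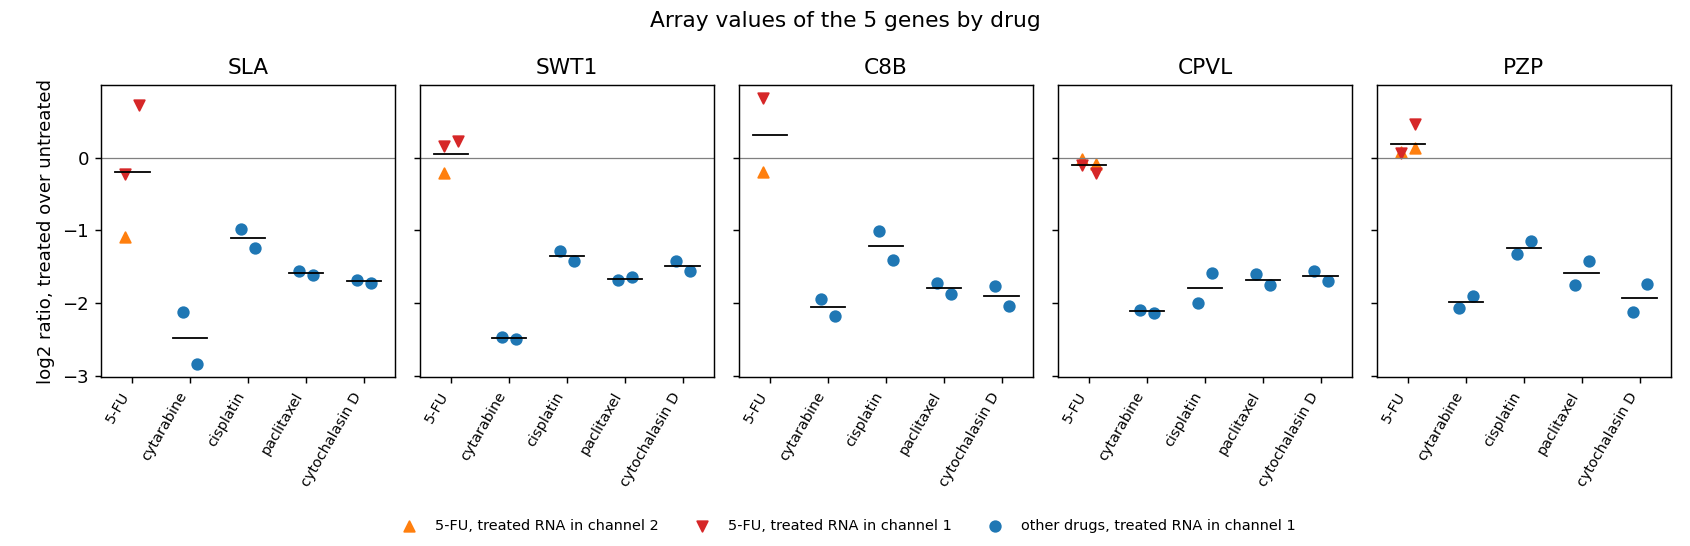
Log2 ratio of treated over untreated RNA on every array (points) with the mean of the arrays of a drug (black line), by gene and drug; triangles show the orientation of the 5-FU arrays. All 40 values of the 4 other drugs lie between −2.83 and −0.98, and the 16 values of 5-FU between −1.09 and 0.82.

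On each of the 8 arrays of the other drugs the 5 genes ranked among the lowest ratios. SLA was 6th of 6681 features on the second cytarabine array, C8B was 6th of 7163 on the second cytochalasin D array, and CPVL was 9th of 7279 on the first cisplatin array. The least extreme rank was that of SLA on the first cisplatin array, 120th of 7279, or within the lowest 1.65%. On the 5-FU arrays ranks ran from 1.70% (SLA, forward, replicate 1) to 98.5% (C8B, reversed, replicate 1). Both arrays at or below −1 were found for 5 of 5 genes with cytarabine, against 3.28% of the 6637 features measured there. The counts were 4 of 5 with cisplatin (1.04% of all features), 5 of 5 with paclitaxel (2.02%) and 5 of 5 with cytochalasin D (1.62%). These values chose the genes, and nothing is read from the counts. SLA, the exception with cisplatin, missed by its first array (−0.98).

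**Figure D2:**
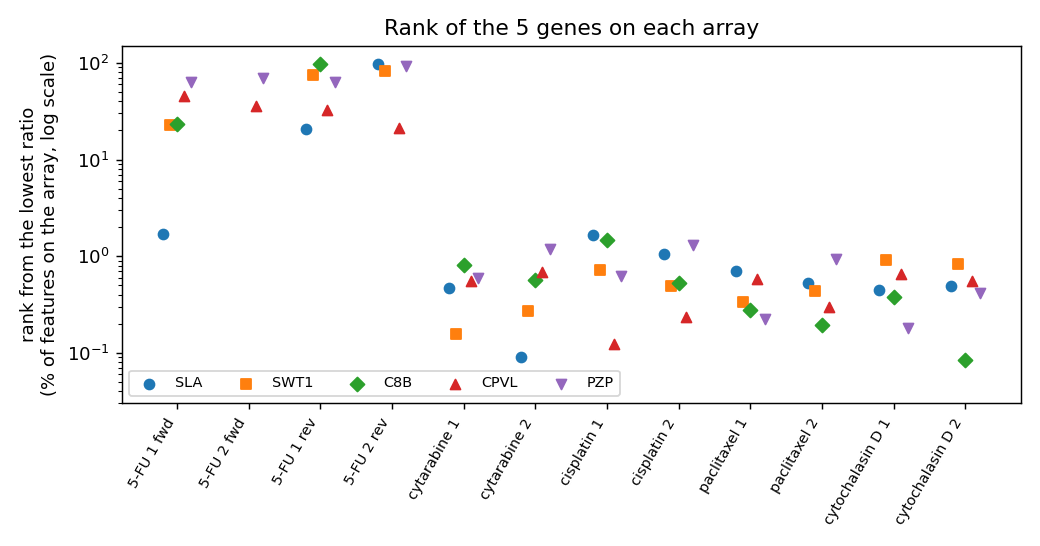
Rank of each gene among the features with a value on an array, counted from the lowest ratio and given as a percentage on a log axis; "fwd" and "rev" mark the orientation of the 5-FU arrays. All ranks on the arrays of the other drugs lie between 0.08% and 1.65%, while those on 5-FU arrays lie between 1.70% and 98.5%.

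Among the 4 drugs in 1 orientation, differences do not depend on the channel. They are given with standard errors from a limma fit of the 8 arrays and, as the same values chose the genes, without a test. Cytarabine gave the lowest mean for each gene. Cytarabine minus cisplatin was −1.37 ± 0.22 for SLA, −1.12 ± 0.09 for SWT1, −0.84 ± 0.17 for C8B, −0.75 ± 0.17 for PZP and −0.32 ± 0.14 for CPVL. For C8B and PZP the array values of cytarabine overlapped those of cytochalasin D, the next in order, whereas for SLA, SWT1 and CPVL they lay apart from those of the next drug. For paclitaxel and cytochalasin D, which act on different filaments of the cytoskeleton, paclitaxel minus cytochalasin D was 0.11 ± 0.22 for SLA, 0.10 ± 0.17 for C8B, −0.05 ± 0.14 for CPVL, −0.17 ± 0.09 for SWT1 and 0.34 ± 0.17 for PZP. The values of these drugs overlapped for C8B, CPVL and PZP and lay apart for SLA and SWT1. Cisplatin lay above paclitaxel without overlap for SLA, SWT1, C8B and PZP. For SWT1 its values overlapped those of cytochalasin D, and for CPVL those of paclitaxel. The share of all features whose arrays lie apart between these drugs is not given here. Nothing is therefore read from which values overlap or lie apart. Over the 8 arrays, Pearson's r between pairs of the genes ran from 0.15 (C8B with CPVL) to 0.89 (SLA with SWT1), a description over arrays that share drugs.

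The spread between replicates over all features gives a scale for these values. The median absolute difference between replicates was 0.12 for cytarabine and cisplatin arrays and 0.12 and 0.10 for paclitaxel and cytochalasin D arrays, with 95th percentiles of 0.54, 0.49, 0.50 and 0.47. SLA with cytarabine, 0.71 between its arrays, is the only one of the 20 pairs above the 95th percentile of its drug. In every one of the 20 the mean lay farther from 0 than the difference between the arrays. Means far from 0 on these arrays chose the genes, so nothing is read from this count.

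Low values in the other drugs chose the genes, and the 5-FU ratio was tested with limma in a fit of all drugs that holds a term for the channel. In that fit 0 of the 5 genes passed an adjusted p of 0.05, where 11.8% of 5123 features fell and 5.35% rose, and 1 of 5 had an unadjusted p under 0.05, against 28.2% of all features. For SLA, SWT1 and C8B the test holds 1 5-FU replicate, since replicate 2 lacked its forward array. Its error comes from the other drugs, whose values chose the genes, so it does not measure the spread between 5-FU replicates. Whether having 5-FU values also played a part in the choice is not known here. The test is thus not fully separate from the choice. SLA read −0.66 ± 0.22 (SE, limma adjusted p = 0.0981) from the pair of replicate 1. Without the channel term the reversed array of replicate 2 (0.72) also enters, and SLA read 0.030 (adjusted p = 0.965). SLA also passed where either cytarabine array was left out (−0.66, adjusted p = 0.0113). SWT1 read −0.03 (adjusted p = 0.883) and C8B 0.31 (adjusted p = 0.303) from the same replicate. CPVL read −0.10 (95% interval −0.33 to 0.12, adjusted p = 0.546) and PZP 0.18 (95% interval −0.09 to 0.46, adjusted p = 0.373), each from both replicates. The difference between 5-FU and the other drugs was not tested, as the latter chose the genes.

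Orientation can be set beside these values only in 5-FU. The reversed 5-FU arrays carry treated RNA in the same channel as all arrays of the other drugs, and on them the 5 genes read −0.23 to 0.82. The channel effect, taken as the forward minus the reversed ratio divided by 2, was −0.51 ± 0.12 for C8B and −0.43 ± 0.16 for SLA. Both, like that of SWT1, rest on 1 pair of arrays, that of replicate 1. Their errors come from the spread of the other drugs and do not measure how the channel effect varies. The sizes for C8B and SLA exceed those of 97.7% and 96.2% of the 5123 features with an estimate. Many of those features average 2 pairs, so the shares are not like for like. The channel effect was −0.18 ± 0.06 for SWT1, −0.08 ± 0.08 for PZP and 0.05 ± 0.07 for CPVL. The fit adds this effect to the mean of the arrays of each other drug, so the fitted ratios of C8B and SLA lie farther from 0 than their arrays. With it, SLA read −2.91 ± 0.22, −1.54, −2.02 and −2.13 with cytarabine, cisplatin, paclitaxel and cytochalasin D, and C8B −2.56 ± 0.17, −1.72, −2.30 and −2.40. The medians of the 5 genes were −2.56, −1.54, −1.84 and −2.004 in the same order, against medians between 0.01 and 0.04 over all features. With or without the term, every gene was at or below −1.11 in each of these drugs.

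**Figure D3:**
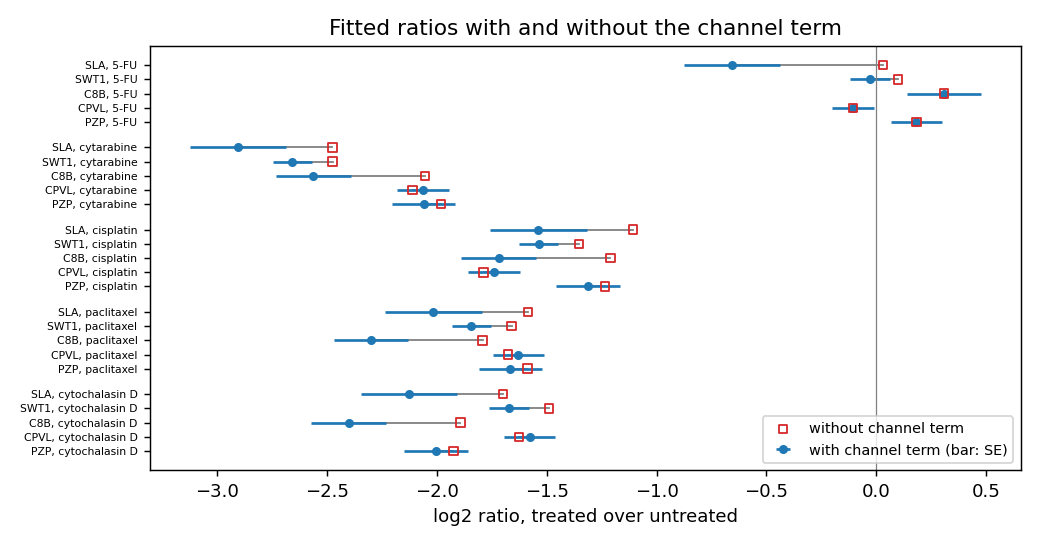
Fitted log2 ratio of each gene in each drug with the channel term (filled circles, bars are standard errors) and without it (open squares). The term shifts C8B by 0.51 and SLA by 0.43 in the 4 other drugs, and CPVL by 0.05 in the opposite direction.

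Values of SLA, SWT1 and C8B were missing on some 5-FU arrays. C8B had 2 of 4 values there, SLA and SWT1 3 each, CPVL and PZP 4 each, whereas all 5 had 8 of 8 on the arrays of the other drugs. Of features with a value on all 8 of those arrays, 59.2% to 82.8% had one on a given 5-FU array. Missing values there were thus common and not particular to these genes. Missing 5-FU values were more frequent among features as low as these, a set picked after the values were seen. Values on all 8 other arrays were required to enter it. Each of the 5 genes had at least 2 5-FU values, unlike most of that set. Of 6519 features with a value on all 8 arrays, 44 (0.675%) were at or below −1 on each of them and 0 at or above 1 on each. SWT1, C8B, CPVL and PZP are 4 of the 44. Among the 44, 27 (61.4%) had no value on any 5-FU array and 5 had values on all 4, whereas among the 6519 the shares were 13.6% and 54.2%. The deposited table does not say why a value is missing, and spot intensities were not analysed here. The part of faint spots or of shared untreated RNA in the low ratios was not tested.

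**Figure D4:**
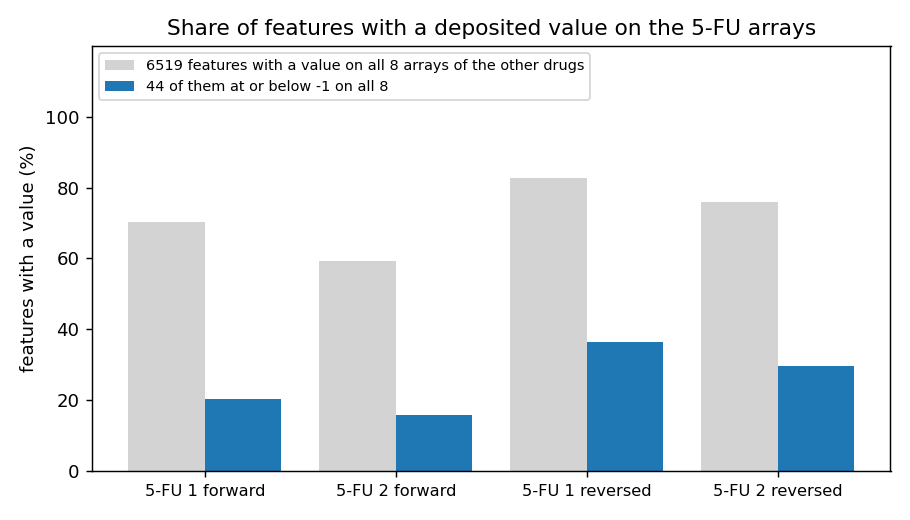
Percentage of features with a deposited value on each 5-FU array, for the 6519 features measured on all 8 arrays of the other drugs (grey) and for the 44 of them at or below −1 on all 8 (blue). The grey bars lie between 59.2% and 82.8%, the blue bars between 15.9% and 36.4%.

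Other genes had profiles of nearly the same shape, though many differed in size. By Pearson's r with the mean of the 5 genes, over the arrays where both had values and among 3734 named genes with at least 10, the nearest were UGT1A10, a glucuronidating enzyme (0.99, 12 arrays), the helicase DDX52 (0.98, 12 arrays), POU6F1 (0.98, 10 arrays), WSB2 (0.98, 12 arrays), LPCAT2 (0.97, 10 arrays), PTAFR (0.97, 11 arrays), RAB18 (0.97, 12 arrays) and ATP11B (0.97, 12 arrays). The points share arrays and fall into the 5-FU arrays and the rest, so the coefficients include the gap between these. Means of these 8 genes over the 8 arrays of the other drugs ran from −0.67 (RAB18) to −1.77 (LPCAT2). UGT1A10 rose in 5-FU (0.40 ± 0.08, limma adjusted p = 0.0130), though its 5-FU values took part in the ranking that named it. By size as well as shape, LPCAT2, an acyltransferase of lipid metabolism, lay closest, with a mean absolute difference of 0.15 and a mean of −1.77 over the 8 arrays, followed by JADE2 (0.22), ATXN1 (0.25), UGT1A10 (0.25) and ADAM12 (0.27). The mean of the 5 genes over the 8 arrays was −1.74. ADAM12 read −2.68, −1.89, −1.72 and −1.84 with cytarabine, cisplatin, paclitaxel and cytochalasin D, and 0.21 over 3 5-FU arrays. The alcohol dehydrogenase ADH4 (−2.16, −0.93, −1.58 and −1.70) and the damage kinase ATM (−1.61, −0.78, −1.30 and −1.30) were less low with cisplatin than with the others, as were SLA, SWT1, C8B and PZP.

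Lists of genes related to the 5 were set beside them. Calls are by limma at an adjusted p of 0.05 over all features. With cytarabine 11.1% of 4831 features fell and 10.6% rose, with cisplatin 7.8% and 8.47% of 4960, with paclitaxel 4.08% and 2.62% of 4930, and with cytochalasin D 6.43% and 4.36% of 4927. Of 35 complement genes besides C8B, 19 were on the array. In 5-FU 2 of the 12 tested rose, and in each other drug 1 of 11 rose and at most 1 fell, with list medians from −0.03 to 0.10, against 0.01 to 0.04 over all features. C8A and C8G, whose products join C8B in component C8, did not share its low ratios. C8A arrays read −0.11 to 0.22 in the 4 drugs and C8G arrays −0.05 to 0.16. C8A rose in 5-FU by 0.37 ± 0.06 (adjusted p = 0.00617), a call that missed the threshold without replicate 1 (0.36, adjusted p = 0.0667) or replicate 2 (0.38, adjusted p = 0.0510). Its fitted falls with cytarabine (−0.28, adjusted p = 0.0411) and cytochalasin D (−0.32, adjusted p = 0.0423) ended without the channel term (−0.06 and −0.10) and without either replicate of 5-FU, paclitaxel, cytarabine or cytochalasin D (−0.23 to −0.34). With the replicate number as a block neither passed (−0.28 and −0.32), nor did the first with scaled arrays (−0.28) or the second with arrays entered singly (−0.32). C5, from which the assembly of the pore starts, rose with all 4 drugs in the fit, though with the arrays entered singly 0 of these calls passed (adjusted p = 0.0532, 0.162, 0.110 and 0.113 in the order below). The values were 0.54 with cytarabine, 0.38 with cisplatin, 0.53 with paclitaxel and 0.49 with cytochalasin D. Without the channel term they were 0.34, 0.18, 0.33 and 0.28, of which that of cytarabine passed, and without 5-FU replicate 2 they were 0.35, 0.19, 0.34 and 0.29, of which 0 passed in limma. The calls also ended without cytarabine replicate 2 (0.49) for cytarabine and without either paclitaxel replicate (0.59 and 0.47) for paclitaxel. That of cytochalasin D ended without either of its replicates (0.37 and 0.60). That of cisplatin ended when any replicate but the first of 5-FU was left out (0.19 to 0.44). It also ended without centring (0.38), with scaled arrays (0.36) and with the replicate number as a block (0.38). C5AR1, a receptor of the C5 fragment, fell with cisplatin (−0.75), which ended without the channel term (−0.45), cisplatin replicate 1 (−0.50), or any replicate of 5-FU (−0.72 and −0.79) or cytochalasin D (−0.75). C4B rose in 5-FU (0.54), a call lost without 5-FU replicate 2 (0.54) or either cytochalasin D replicate (0.54), with arrays scaled to the same spread (0.50) and with the replicate number as a block (0.49). C6, an earlier component of the same pore, also read low, with means of −2.74, −1.43, −1.66 and −1.79 with cytarabine, cisplatin, paclitaxel and cytochalasin D. It had no 5-FU value and so could not be fitted. C6 is named after its values were seen.

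For PZP, 14 of 28 plasma protease inhibitors were on the array, and 1 of 7 passed with cytarabine. That gene was TIMP3, an inhibitor of matrix proteases, which fell (−1.14 ± 0.25, adjusted p = 0.0230; −1.71 without the channel term, and no longer passing without cytarabine replicate 2, −0.83, or with scaled arrays, −0.93). In limma 0 of 7 passed with cisplatin, paclitaxel or cytochalasin D and 0 of 8 with 5-FU, with 1 unadjusted p under 0.05 in each. On the arrays, 5 of 11 genes of this list with values averaged −1 or lower with cytarabine, 0 of 13 with cisplatin, 4 of 13 with paclitaxel and 3 of 12 with cytochalasin D. Of all features with values, 4.41%, 1.61%, 2.86% and 2.53% did. The examples that follow had no 5-FU value for a fit and are named after their values were seen. Antithrombin, SERPINC1, read −2.22, −0.92, −1.36 and −1.73 with cytarabine, cisplatin, paclitaxel and cytochalasin D, and ITIH3 −1.67, −0.90, −1.32 and −1.32. A2M, the gene most closely related to PZP, had values in 5-FU only (−0.07, adjusted p = 0.592).

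In the SRC family list, 23 of 40 genes were on the array. CBLB, a ubiquitin ligase that restrains antigen receptor signalling as SLA does, fell with cytarabine (−1.89 ± 0.13, adjusted p = 0.000334), paclitaxel (−1.59, adjusted p = 0.00193), cytochalasin D (−1.16, adjusted p = 0.00376) and cisplatin (−1.13, adjusted p = 0.00211). Its arrays read −1.67 and −1.93, −1.48 and −1.51, −0.99 and −1.15, and −0.82 and −1.25 in these drugs. In 5-FU CBLB read 0.10 ± 0.11 (adjusted p = 0.633), with all 4 arrays between −0.01 and 0.33. CBLB kept its calls in the 4 drugs under every alternative tried, but most of these left its estimate unchanged. Of the others, LYN, a SRC family kinase, fell with 5-FU (−0.65), and CSK, which inhibits SRC kinases, rose with cisplatin (0.74). The CSK call ended without either cisplatin replicate (0.79 and 0.69) or 5-FU replicate 2 (0.68). VAV2 rose with cytarabine (0.65) and lost its call without cytarabine replicate 2 or any replicate of cisplatin or paclitaxel (0.65), with scaled arrays (0.59) and with the block (0.61). In all, of 9 tested with cytarabine 2 fell and 2 rose. Of 10 with cisplatin or cytochalasin D 1 fell and 1 rose, and of 10 with paclitaxel or 5-FU 1 fell. List medians were 0.22 with cytarabine, 0.14 with cisplatin, 0.04 with paclitaxel, 0.03 with cytochalasin D and −0.07 with 5-FU. On the arrays, 2 of 19 genes with values averaged −1 or lower with cytarabine, 2 of 22 with cisplatin, 3 of 22 with paclitaxel and 2 of 21 with cytochalasin D. Of all features 4.41%, 1.61%, 2.86% and 2.53% did. LAT, an adaptor of T cell signalling that had no 5-FU value and is named after its values were seen, read −2.08, −1.24, −1.61 and −1.36 with cytarabine, cisplatin, paclitaxel and cytochalasin D.

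Among 29 lysosomal and secretory peptidases set beside CPVL, 19 were on the array and 8 tested. With each drug 1 fell, and 1 rose with 5-FU, cytarabine and cytochalasin D, with list medians from −0.07 to 0.15. CTSC, cathepsin C, fell with 5-FU (−1.08 ± 0.07, adjusted p = 5.9e-05), and CPB2, a plasma carboxypeptidase, with paclitaxel (−0.54), a call that ended without either paclitaxel replicate (−0.51 and −0.58) or 5-FU replicate 2 (−0.52). CPN2 rose with 5-FU (0.46; 0.21 and no longer passing without the channel term, 0.30 with arrays entered singly, 0.43 with scaled arrays, 0.45 with the block, and lost without any replicate of cytarabine, cisplatin or cytochalasin D, 0.46) and the protease CTSD with cytarabine (0.24). The CTSD call was lost without either replicate of cytarabine (0.27 and 0.20), 5-FU (0.24 and 0.23) or cytochalasin D (0.24), and with scaled arrays (0.19). CTSA, the lysosomal carboxypeptidase related to CPVL, read between −0.08 and 0.14 in the 5 drugs with no call (adjusted p from 0.325 to 0.754). Of 41 genes of nuclear RNA surveillance and export set beside SWT1, 14 were on the array and 11 tested, of which 2 fell with 5-FU, cisplatin, paclitaxel and cytochalasin D and 1 with cytarabine, while 0 rose in limma (4 to 6 had an unadjusted p under 0.05). EXOSC10, a nuclease of the nuclear exosome, fell with 5-FU (−0.81 ± 0.08, adjusted p = 0.000635), as did the export factor THOC5 (−0.39), whose call ended without either 5-FU replicate (−0.34 and −0.44). The nucleoporin NUP98 fell with cytochalasin D (−0.89; −0.36 and not passing without the channel term). No gene of these 2 lists averaged −1 or lower on the arrays of cytarabine, cisplatin, paclitaxel or cytochalasin D.

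Markers of hepatocytes, of blood cells and of lung and epithelium gave few calls. Of 15 hepatocyte markers 8 were on the array, with array medians of −0.24 to 0.11 by drug, and APOB, with cytochalasin D (−1.24), is the only one that averaged −1 or lower in any of the 4 other drugs. The marker APOA2 fell with 5-FU (−0.73), a call that ended without 5-FU replicate 1 (−0.65). Of 15 blood cell markers 7 were on the array, with array medians of −0.08 to 0.15, and CD14 rose with 5-FU (0.55, lost without either 5-FU replicate, 0.63 and 0.47) and with cisplatin (0.68; 0.46 and not passing without the channel term, and lost without 5-FU replicate 1, 0.53, or either cisplatin replicate, 0.76 and 0.61). Of 10 lung and epithelial markers 6 were on the array, and KRT8 fell with cytochalasin D (−0.30), a call that ended without either replicate of 5-FU (−0.34 and −0.26) or of cytochalasin D (−0.34 and −0.26). Markers of hepatocytes tested in the fit were 3, of blood cells 5 and of lung and epithelium 1, so most of these lists could not be tested.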

How the data were processed

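The authors deposited 1 value per probe and array, a log ratio of the channels taken here as log2, with the normalization and spot filter not given in the sources used here. A different base, such as a natural logarithm, would change sizes but no sign. Of 8170 probes, 5930 match 1 gene, 79 several and 2161 none, and symbols were updated through gene IDs. Arrays were centred on their medians, turned by the labelled channels and averaged over probes of a gene. limma 3.58.1 in R 4.3.3 fitted 2 replicates per drug (for 5-FU the mean of forward and reversed arrays) and 1 observation of the channel effect across all genes, with Benjamini-Hochberg adjusted p under 0.05. Features without a 5-FU pair could not be fitted in the other drugs, and a gene with 1 5-FU replicate was tested with the spread of the other drugs. That observation has no error of its own, so standard errors for the 4 other drugs may be too small. The script was tested on simulated data.

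The members and gene lists were chosen with earlier results of these data known. Genes named beside them are the 4 of each list with the largest change among those passing, the 8 and 5 nearest profiles, and MDM2, CDKN1A, ADAM12, ADH4, UGT1A10 and ATM. Same-numbered replicates did not deviate together (r of −0.06 to 0.09 between drugs), so no pairing was used. Alternatives were no channel term, arrays entered singly, no centring, scaled arrays, features with all values, single probes, a replicate block, robust moderation and leaving out each replicate.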

Additional observations from a re-analysis of the deposited data

Results flagged for a closer look

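The mean of PZP over the 4 5-FU arrays was 0.18, each of them above 0, while each of the 8 arrays of the other drugs was below 0. This difference was not tested, and low values in those drugs chose the gene. SWT1, C8B and CPVL likewise read higher on every 5-FU array with a value than on any array of the other drugs. C8B had a higher 5-FU mean (0.31), from only 2 arrays. Low values in the other drugs chose these genes too. The share of all features that lie apart in this way is not given here, so nothing is read from the count. For PZP, the reversed array of replicate 2 (0.46) lay far from the other 5-FU arrays (0.07 to 0.13). Its gap was 0.848 of the range of the 4 arrays. That is above the 95% critical value of Dixon’s test, which chance passes in about 1 of 20 groups. The 4 arrays are 2 replicates in 2 orientations. PZP did not pass in 5-FU (adjusted p = 0.373 in limma).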

How the results depend on the processing

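Over 18 alternatives the fitted values of the 5 genes in cytarabine, cisplatin, paclitaxel and cytochalasin D ran from −3.26 to −1.11. Of these 336 values 212 equal the reported one within rounding, and low values chose the genes, so the range shows no stability. Their medians (−2.56, −1.54, −1.84 and −2.004) became −2.11, −1.23, −1.66 and −1.70 without the channel term. With arrays scaled to the same spread they were −2.27 for cytarabine, −2.08 for paclitaxel and −2.34 for cytochalasin D, and with the arrays entered singly −1.72 for cisplatin. Leaving out 1 replicate gave −2.67 to −2.44, −1.61 to −1.47, −1.87 to −1.82 and −2.11 to −1.82. In 5-FU, SLA read 0.030 and SWT1 0.10 without the channel term, a change of sign. The count of these genes called in 5-FU was 0 to 1 when a replicate was left out. It was 1 with the replicate block (SLA, −0.79, adjusted p = 0.0411), although the numbers do not pair the samples. The adjusted p of SLA ran from 0.0113 to 0.965 over the alternatives.

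Features called numbered 881 in 5-FU, 1049 in cytarabine, 807 in cisplatin, 330 in paclitaxel and 532 in cytochalasin D. Without the channel term they were 1336 in 5-FU, 1797 in cytarabine, 1144 in cisplatin, 709 in paclitaxel and 803 in cytochalasin D. With the arrays entered singly they were 1704 in 5-FU and 337 in cytochalasin D, and with scaled arrays 569 in cytarabine. Leaving out 1 replicate gave 459 to 840, 408 to 976, 343 to 756, 86 to 331 and 118 to 477. The cause was not tested. Medians of the 5 genes could not be had without 5-FU replicate 1 or with features measured on every array, where only CPVL and PZP keep a fit. Spot signal over background was not analysed here.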
